A study of Mus musculus with 4 samples.

Results

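The genes described here are type I interferon-stimulated genes, a list of 39 mouse genes that cells are known to switch on when interferon alpha or beta reaches them. The list was fixed by gene symbol, and each gene was read from its brightest probe set annotated with a single symbol (highest mean log2 value). Of the 39 genes, 35 were measured in this way, out of 22180 genes on the arrays. Oas1a, Ifi27l2a and Ifi47 lay only on probe sets that carry several symbols, and Ifi44 had no probe set with its name, so these 4 were not analysed here.

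The cells were peritoneal macrophages of DBA/2J (DBA) and 129S6/SvEv (129) mice. The paper's cross, which mapped susceptibility to atherosclerosis, was made between apoE-null mice on these backgrounds. The paper calls the donors of its aortas wild type and names those of the macrophages only as parental strains. The mice were 3 months old, ate regular chow and received 1 ml of 4% thioglycollate, an irritant that draws monocytes into the peritoneal cavity, where they become macrophages. The lavaged cells were taken 4 days later and cultured overnight, and 250 ng of pooled RNA was labelled for each whole-transcript array. There were 4 arrays, 1 for each pool: DBA female, DBA male, 129 female and 129 male. By the labels a pool held RNA of 3 mice, while the paper's methods give a larger number. The labels name no interferon, infection or gene change in any group, so the values are those of elicited and cultured cells with no further stimulus. Each strain and sex was a single pool, which hides the spread between mice. The 2 pools of a strain were 1 female and 1 male, so the p-values for strain measure the spread between pools of unlike sex, not between like replicates.

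Type I interferons bind a receptor made of Ifnar1 and Ifnar2, and the receptor's kinases phosphorylate Stat2, which acts with Irf9 on a short DNA element in front of the induced genes. Many of those genes encode sensors of viral nucleic acid or proteins that block a step of virus growth, and some, such as Irf7, feed back to raise interferon production. Macrophages keep many of them at a low standing level, which a small tonic amount of interferon is known to hold up.

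The labelled cell type was checked on its markers. Adgre1, which encodes F4/80, had log2 values of 13.25 and 13.06 in DBA females and males, against 13.01 and 12.92 in 129 females and males, and Csf1r, the receptor for the macrophage growth factor, had 13.17, 13.04, 12.87 and 12.67 in the same order of pools. Of 16 macrophage markers measured, 11 had a positive log2 difference, DBA minus 129, and 5 a negative one. The median over all genes lay between 7.65 and 7.70 in the 4 pools, but their spread was not equal. The SD over genes was largest in the DBA male pool, at 2.24, and smallest in the 129 male pool, at 2.15. Over all probe sets the medians of those pools were 7.18 and 7.37, the lowest and the highest. Xist, transcribed from the inactive X chromosome, was at 12.36 and 12.23 in the female pools and 6.43 and 6.36 in the male pools. As a reference for background, 95% of 1390 odorant and vomeronasal receptor genes lay below a log2 value of 7.17.

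Promoters of the genes that the results turn on are shown first, since the element through which interferon acts is a stretch of letters. It is read here as GAAANNGAAA, the core of the interferon-stimulated response element, searched on both strands (TTTCNNTTTC on the other strand) of a 300-base window from 250 bases before to 50 bases from the start of the gene. The sequences are those of RefSeq on GRCm38.p6, the reference strain's genome and not that of DBA or 129, written 5′ to 3′ along the gene in lower case with each match in capitals. Rsad2, Oasl2, Ddx60 and Eif2ak2 are in the promoter table and had the largest strain differences among genes whose strains did not overlap, and Ifit1 and Ifit3, chosen after their values were seen, are neighbours in function whose levels differed in pattern.
Rsad2, chr12:26456403-26456702, minus strand: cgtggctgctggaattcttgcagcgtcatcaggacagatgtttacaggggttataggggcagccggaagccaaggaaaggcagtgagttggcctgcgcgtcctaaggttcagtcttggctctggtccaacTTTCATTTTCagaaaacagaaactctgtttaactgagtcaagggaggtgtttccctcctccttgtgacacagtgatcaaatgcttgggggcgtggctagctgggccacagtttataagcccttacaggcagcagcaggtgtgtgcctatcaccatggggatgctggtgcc
Oasl2, chr5:114896684-114896983, plus strand: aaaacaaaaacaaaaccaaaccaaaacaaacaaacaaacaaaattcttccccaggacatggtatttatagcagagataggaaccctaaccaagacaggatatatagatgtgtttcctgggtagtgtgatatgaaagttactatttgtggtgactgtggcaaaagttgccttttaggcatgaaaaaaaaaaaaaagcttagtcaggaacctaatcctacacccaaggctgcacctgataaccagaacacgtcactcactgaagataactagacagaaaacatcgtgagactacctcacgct
Ddx60, chr8:61927837-61928136, plus strand: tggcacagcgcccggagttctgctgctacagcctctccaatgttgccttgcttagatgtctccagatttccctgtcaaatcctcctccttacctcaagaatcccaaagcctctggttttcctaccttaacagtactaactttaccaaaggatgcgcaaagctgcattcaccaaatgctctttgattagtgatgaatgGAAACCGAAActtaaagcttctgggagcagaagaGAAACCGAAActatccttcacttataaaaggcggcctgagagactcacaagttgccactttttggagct
Eif2ak2, chr17:78882523-78882822, minus strand: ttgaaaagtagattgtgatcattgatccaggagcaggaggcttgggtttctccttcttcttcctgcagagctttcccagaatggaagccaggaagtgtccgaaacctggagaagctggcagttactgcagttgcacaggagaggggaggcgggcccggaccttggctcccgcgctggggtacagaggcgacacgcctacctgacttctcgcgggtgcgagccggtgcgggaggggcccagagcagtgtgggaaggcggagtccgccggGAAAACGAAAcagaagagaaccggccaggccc
Ifit1, chr19:34640639-34640938, plus strand: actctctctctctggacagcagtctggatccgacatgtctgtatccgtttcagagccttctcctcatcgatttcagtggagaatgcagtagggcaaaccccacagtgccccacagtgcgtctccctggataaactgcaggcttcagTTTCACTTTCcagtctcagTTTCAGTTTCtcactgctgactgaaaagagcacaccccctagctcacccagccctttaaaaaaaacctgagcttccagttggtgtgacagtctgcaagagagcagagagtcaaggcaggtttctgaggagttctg
Ifit3, chr19:34583279-34583578, plus strand: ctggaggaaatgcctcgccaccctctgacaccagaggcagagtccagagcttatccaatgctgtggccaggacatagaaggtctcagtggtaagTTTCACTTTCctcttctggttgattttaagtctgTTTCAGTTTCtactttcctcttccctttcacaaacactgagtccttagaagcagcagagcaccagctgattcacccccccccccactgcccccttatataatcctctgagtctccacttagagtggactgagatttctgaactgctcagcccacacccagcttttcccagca

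Rsad2 held 1 match, which began at position -120, counted back from the start, and Ddx60 held 2, at -53 and -19, both reading GAAACCGAAA. Eif2ak2 held 1 match at 19, just inside the transcribed part, and the window of Oasl2 held none. Ifit1 and Ifit3 held the same 2 runs of letters in the same order, TTTCACTTTC and then TTTCAGTTTC, at -104 and -85 in Ifit1 and at -156 and -122 in Ifit3. Over the list, 29 genes were in the promoter table and 15 of them (51.7%) held the motif, as did 27 of 64 further interferon-stimulated genes outside the list (42.2%), against 1079 of 27025 genes of the whole table (3.99%). Isg15, which encodes a ubiquitin-like protein, held 3 overlapping matches at -78, -72 and -66. A match is only a run of letters, and binding was not measured.

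The first comparison asked whether the genes differed between DBA and 129 macrophages. None of the 35 passed an adjusted p of 0.05 in limma in either direction, against 83 of all 22180 genes (0.374%), and the lowest adjusted p in the list was 0.146, for Ddx60. At an unadjusted p under 0.05 limma gave 7 genes higher in DBA (Ddx60, Rsad2, Tor3a, Eif2ak2, Herc6, Isg20 and Oasl2) and 0 lower, where 6.44% of all genes were higher and 1126 of 22180 were lower. The log2 difference, DBA minus 129, was positive for 33 of the 35 genes and negative for 2, with a median of 0.39 against 0.00 over all genes, where it was positive for 11306 of 22180. Both DBA pools lay above both 129 pools for 14 genes, where 23% of all genes did so, and both lay below for 0, where 21.4% did so. For the other 21 the pools of the strains overlapped. A permutation of 2 pools against 2 cannot give an exact two-sided p below 0.333, so each test rests on the spread that limma shares across genes. Fewer cells of a type and less RNA per cell cannot be told apart in such pools.

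**Figure D1:**
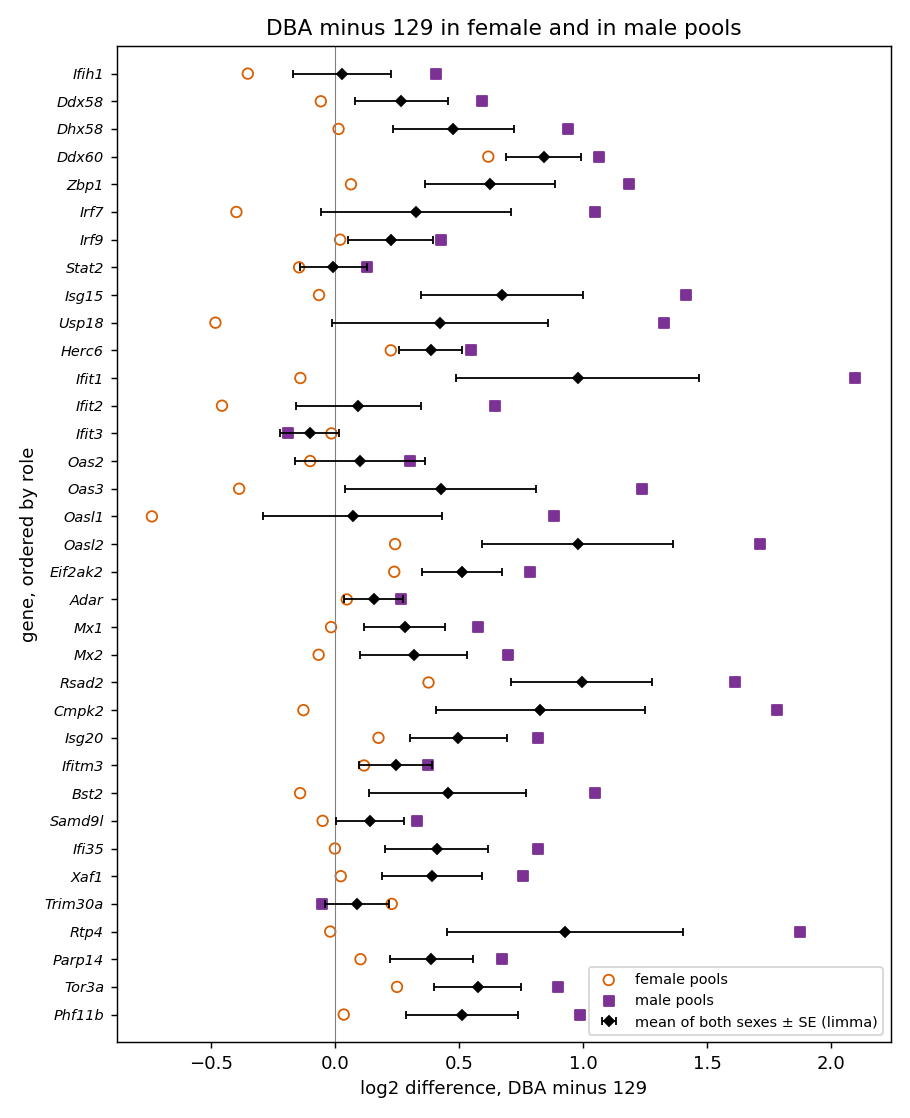
The log2 difference, DBA minus 129, of the 35 measured genes (rows, in order of role): diamonds are the mean over both sexes with its limma standard error, open circles the female pools alone and squares the male pools alone. The squares lie right of zero for 33 genes, while the circles lie on both sides of it.

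The strain difference lay in the male pools. Between the DBA and 129 female pools the median log2 difference was -0.02, with 16 genes positive and 19 negative, while between the male pools it was 0.82, with 33 positive. Over all genes the medians were -0.03 in females and 0.04 in males, with 9771 and 12457 of 22180 genes positive. Without its sign, the median difference in the female pools was 0.13, which was also that of all genes, and in the male pools it was 0.82 against 0.21 for all genes. Only Ddx60 and Oasl1 differed by more than 0.5 between the female pools, a size that 6.74% of all genes passed, Ddx60 with DBA higher by 0.62 and Oasl1 with a difference of -0.74, whereas in the male pools 26 genes (74.3%) were higher in DBA by more than 0.5, against 9.08% of all genes, and 12 (34.3%) by more than 1, against 1.26%. These counts were made after the values were seen. There was 1 pool per strain and sex, so the difference between the sexes in the strain effect was not tested.

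Read by pool, the 129 male pool stood apart from the other 3. It was the lowest of the 4 for 33 of the 35 genes, where this was so for 36% of all genes, the exceptions being Ifit3 and Trim30a. The DBA male pool was the highest for 25 (34.6% of all genes), and for the same 25 genes the 129 male pool was the lowest (21.6% of all genes). Relative to each gene's mean over the pools, the median of the list was 0.08 in the DBA female pool, 0.32 in the DBA male pool, 0.08 in the 129 female pool and -0.47 in the 129 male pool. Without the 129 male pool the median strain difference was 0.10, with 23 genes positive, 12 negative and 1 higher at an unadjusted p under 0.05 (2.97% of all genes), and without the 129 female pool it was 0.68, with 26 higher at that threshold (7.91% of all genes). Without the DBA female pool the median was 0.49, with 11 genes higher (6.75% of all genes), and without the DBA male pool it was 0.28, with 2 (4.42%). In no such fit did a gene pass the adjusted threshold.

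**Figure D2:**
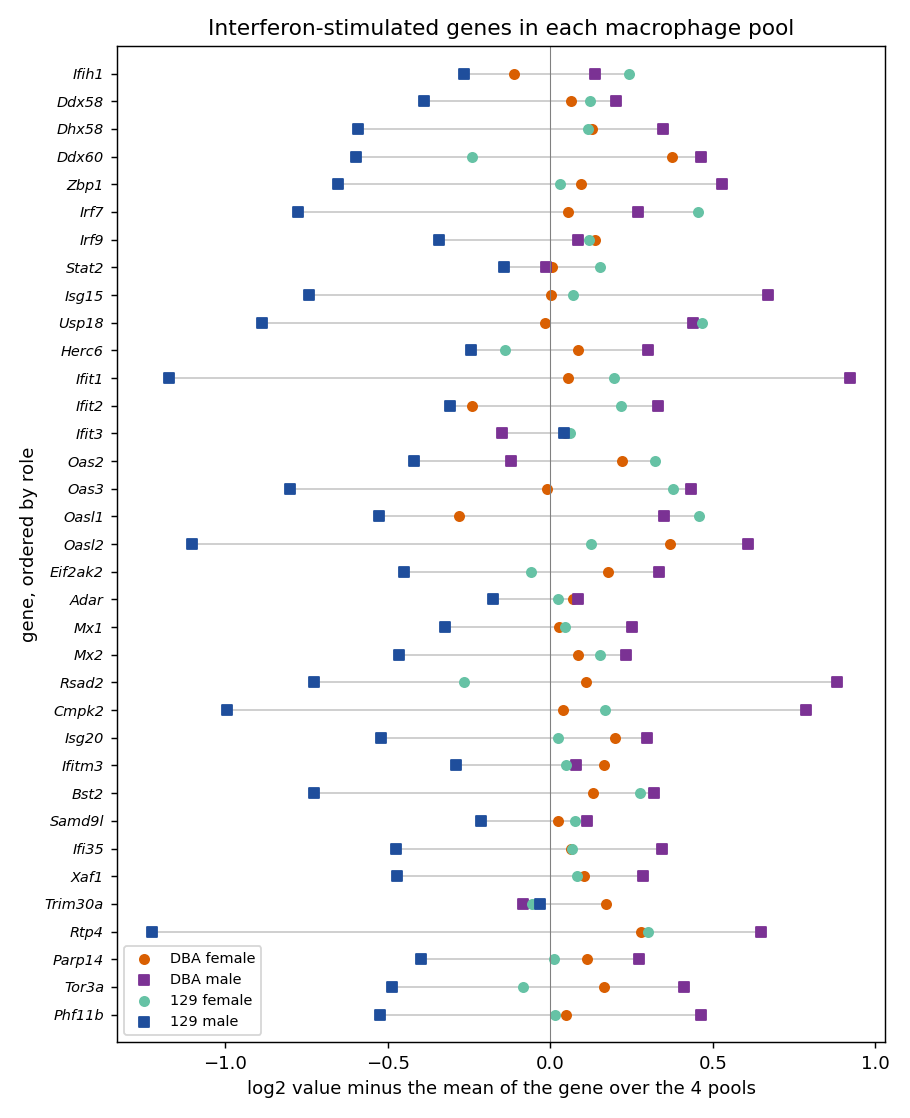
The 35 measured genes in each pool, as the log2 value minus the mean of the gene over the 4 pools (horizontal axis). The dark blue squares of the 129 male pool are the leftmost point in 33 rows, and the purple squares of the DBA male pool are the rightmost in 25.

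Among the sensors of viral nucleic acid, Ddx60, a helicase reported to help the RNA sensor Ddx58, had log2 values of 8.45 and 8.54 in DBA females and males, against 7.84 and 7.48 in 129 females and males. It was higher in DBA in both sexes, by more than the gap between the sexes of either strain. The log2 difference was 0.84 ± 0.15 (SE, n = 2 pools each, limma adjusted p = 0.146), and its adjusted p lay between 0.105 and 0.528 over the alternatives. Zbp1, which binds nucleic acids in the Z form, had 9.91 and 10.35 in the DBA pools, against 9.85 and 9.17 in the 129 pools, so that the females lay close together and the males apart, with a log2 difference of 0.62 ± 0.26 (SE, n = 2 each, limma adjusted p = 0.447). Ddx58, Dhx58 and Ifih1, the family of cytoplasmic RNA helicases that detect viral RNA, had differences of 0.27, 0.48 and 0.03. In all 5 sensors the 129 male pool was the lowest.

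The transcription factors of the response did not separate the strains. Irf7, which switches on interferon alpha genes and is itself induced, had log2 values of 11.32 and 11.53 in DBA females and males, against 11.72 and 10.49 in 129 females and males. The 129 pools thus held both the highest and the lowest value, and the strain difference was 0.32 ± 0.38 (SE, n = 2 each, limma adjusted p = 0.772). Without the 129 male pool it was -0.29. Irf9, the DNA-binding part of the complex that interferon activates, had 10.65 and 10.60 in the DBA pools, against 10.63 and 10.17 in the 129 pools, where again the 129 male pool alone was low, with a difference of 0.22 ± 0.17 (SE, n = 2 each, limma adjusted p = 0.648) that was -0.01 without that pool. Stat2, its partner, had 10.37 and 10.35 in the DBA pools, against 10.51 and 10.22 in the 129 pools, and its difference of -0.01 ± 0.14 (SE, n = 2 each, limma adjusted p = 0.988) had no settled sign.

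Isg15, Usp18 and Herc6 belong to the system that links the Isg15 protein to other proteins, in mice through the ligase Herc6, and takes it off again through Usp18, which also damps the interferon receptor. Isg15 had log2 values of 7.05 and 7.72 in DBA females and males, against 7.12 and 6.31 in 129 females and males, of which only the DBA male value was above the background reference. Usp18 had 10.74 and 11.20 in the DBA pools, against 11.23 and 9.87 in the 129 pools, well above that reference. Isg15 was highest in DBA males and Usp18 in 129 females, and both were lowest in 129 males. With the DBA female pool and both 129 pools under that reference, no fold bound is given for Isg15, whose measured log2 difference was 0.67. The log2 differences were 0.42 for Usp18 and 0.38 for Herc6, and only Herc6 had both DBA pools above both 129 pools.

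The Ifit proteins bind foreign RNA and hold back its translation, and their genes gave unlike values. Ifit1 had log2 values of 9.35 and 10.22 in DBA females and males, against 9.49 and 8.12 in 129 females and males. Its levels in the female pools lay within 0.14 of each other, and in the male pools DBA was 4.28-fold higher, a log2 difference of 2.10, the largest in the list. Ifit3, by contrast, had 8.50 and 8.31 in the DBA pools, against 8.52 and 8.50 in the 129 pools, a span of 0.21 over all 4, and a male difference of -0.19. Its promoter window held the same pair of motif matches as that of Ifit1, as printed above. Ifit2 had a female difference of -0.46 and a male difference of 0.64. Mice carry close copies of these genes, and cross-hybridisation of their probes was not tested.

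Among the oligoadenylate synthetases, which on sensing double-stranded RNA make the signal that activates RNase L, and their relatives, Oasl2 had log2 values of 11.48 and 11.72 in DBA females and males, against 11.23 and 10.00 in 129 females and males. The 129 male pool lay more than 1 log2 unit below each of the other pools. The strain difference was 0.98 ± 0.38 (SE, n = 2 each, limma adjusted p = 0.42), a 1.81-fold higher mean level in DBA. Oas2 had 10.54 and 10.20 in the DBA pools, against 10.64 and 9.90 in the 129 pools, so that females were above males in both strains. Its strain difference was 0.10 ± 0.26 (SE, n = 2 each, limma adjusted p = 0.909). Oas3 and Oasl1, the last known in mice to hold back translation of Irf7, had strain differences of 0.42 and 0.07, and each was higher in the 129 female pool than in the DBA female pool. Eif2ak2, the kinase PKR that stops translation on double-stranded RNA, had 9.29 and 9.44 in the DBA pools, against 9.05 and 8.66 in the 129 pools. The strains did not overlap, and the difference was 0.51 ± 0.16 (SE, n = 2 each, limma adjusted p = 0.336). Adar, which edits double-stranded RNA, differed by 0.15.

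The antiviral effectors included the largest strain difference of the list. Rsad2, which encodes viperin, an enzyme that makes a chain-terminating nucleotide, had log2 values of 9.24 and 10.01 in DBA females and males, against 8.86 and 8.40 in 129 females and males. Both DBA pools lay above both 129 pools, although the DBA pools themselves differed by 0.77. The difference was 0.99 ± 0.29 (SE, n = 2 each, limma adjusted p = 0.313), a 2.04-fold higher mean level in DBA, and the adjusted p ranged between 0.0602 and 0.821 over the alternatives. Cmpk2, a mitochondrial nucleotide kinase, had 9.78 and 10.53 in the DBA pools, against 9.91 and 8.75 in the 129 pools, with the female pools close together and a male ratio of 3.44. The other effectors were Isg20, an RNA exonuclease (0.50), Bst2, which tethers budding virus to the cell (0.45), Mx2, a dynamin-like GTPase (0.32), Ifitm3, which blocks virus entry (0.24), and Samd9l, which restricts poxviruses (0.14), each given as the log2 difference, DBA minus 129. Mx1, its relative, was below the background reference in all 4 pools, so that no difference is given, and Mx2 was below it in the 129 male pool. The 129 male pool was the lowest for all 8 effectors, although for Mx1 that rank rests on values below the background reference.

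Of the other induced genes, Tor3a, an ATPase of the torsin family, had log2 values of 11.51 and 11.76 in DBA females and males, against 11.27 and 10.86 in 129 females and males. The strains did not overlap, and the difference was 0.57 ± 0.17 (SE, n = 2 each, limma adjusted p = 0.325). Rtp4, a chaperone of cell surface receptors, had 9.74 and 10.11 in the DBA pools, against 9.76 and 8.23 in the 129 pools. Its female pools were level within 0.02 and its 129 male pool lay 1.53 below the 129 female pool, the largest gap between the sexes in the list. The strain difference was 0.93 ± 0.48 (SE, n = 2 each, limma adjusted p = 0.511). Phf11b, Ifi35, Xaf1, a partner of an apoptosis inhibitor, and Parp14, which attaches ADP-ribose to proteins, had differences of 0.51, 0.41, 0.39 and 0.39. A second probe set of Ifi35 gave -0.15. Trim30a, which in mice damps Toll-like receptor signalling, had 9.36 and 9.11 in the DBA pools, against 9.14 and 9.16 in the 129 pools, and was the only gene of the list in which the 129 female pool was not above the 129 male pool.

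The second comparison set the female pools against the male pools, with strain in the model. None of the 35 genes passed an adjusted p of 0.05 in limma, where 4 genes did so over all (0.018%), and at an unadjusted p under 0.05 limma gave only Oas2, with a female minus male log2 difference of 0.54, where 1.73% of all genes passed in either direction. The median over the list was 0.16. That small value hid opposite differences in the strains, which this fit counts as error. In DBA the female pool was below the male pool for 29 genes, against 12860 of all 22180, with a median female minus male difference of -0.22. In 129 the female pool was above the male pool for 34 genes, against 13358 of all 22180, with a median of 0.54. Over all genes the medians were -0.04 in DBA and 0.05 in 129. Both directions held in 29 of the 35 genes, against 40.3% of all genes. In DBA, 6 genes (17.1%) had a male pool higher by more than 0.5, against 2.65% of all genes. In 129, 21 genes (60%) were higher in the female pool by more than 0.5, against 2.53% of all genes, and 8 (22.9%) by more than 1, against 0.176%.

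**Figure D3:**
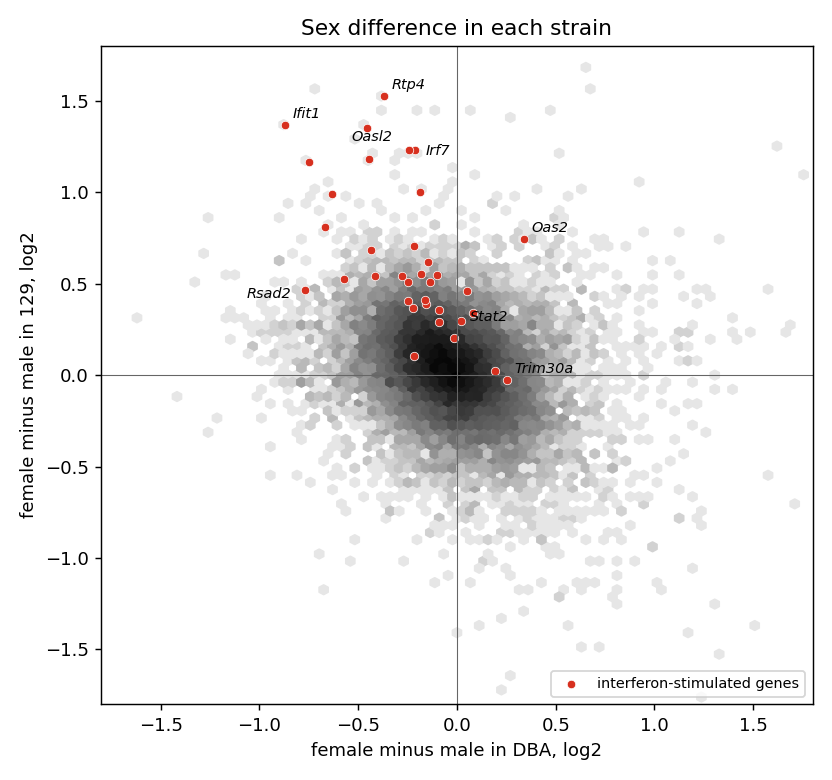
The log2 difference, female minus male, in DBA (horizontal axis) and in 129 (vertical axis), with all 22180 genes as grey density on a log scale and the 35 measured interferon-stimulated genes as red points. The red points sit above zero on the vertical axis in 34 cases and left of zero on the horizontal axis in 29, and 13 genes, none of them in the list, lie outside the axes.

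Over the whole array 39 genes were higher in the 129 female than in the 129 male pool by more than 1 log2 unit. Of these, 8 were in the list (Rtp4, Ifit1, Usp18, Irf7, Oasl2, Oas3, Cmpk2 and Bst2) and 2, Ifi44l and Oas1g, were further interferon-stimulated genes. The other 29 were in neither list, although some of them are also known to respond to interferon, and included Xist, the surface proteins Ly6i and Ly6c2, the chemokine Ccl5, the metabolic enzymes Arg1 and Acod1, and the cytokine Il1b. Arg1, which breaks down arginine, had log2 values of 10.28 and 10.01 in DBA females and males, against 10.00 and 8.57 in 129 females and males. Ccl5 had 11.30 and 10.85 in the DBA pools, against 11.66 and 10.21 in the 129 pools. Sex, the mice of that pool and the handling of its cells cannot be told apart here.

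The genes upstream of the list were taken by their place in the pathway. Of the interferon genes themselves 19 were measured and 11 lay below the background reference in every pool, the median strain difference was -0.06, and the 129 male pool was the lowest for 1 of them, against 36% of all genes. Ifnb1, the interferon that macrophages make first, had log2 values of 5.62 and 5.77 in DBA females and males, against 5.34 and 5.36 in 129 females and males, all below that reference. The differences ran between 0.81 for Ifna4 and -0.48 for Ifna1 (limma adjusted p = 0.199 and 0.217). The mean level of the 19 genes lay between 6.64 and 6.77 in the pools, below that reference. Probes shared between close copies of this family were not examined. None of the 19 passed the adjusted threshold, and at an unadjusted p under 0.05 limma gave 3 higher and 2 lower, where 6.44% of all genes were higher and 1126 of 22180 were lower.

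Among 14 measured genes for receptors and signalling the median strain difference was 0.09, limma gave 2 higher and 0 lower (unadjusted p under 0.05) and 0 after adjustment, and the 129 female minus male median was 0.09. At that unadjusted threshold 6.44% of all genes were higher and 1126 of 22180 were lower. The 129 male pool was the lowest for 10 of the 14, against 36% of all genes. DBA was above 129 in the male pools for 12, against 12457 of all 22180 genes. Ifnar1, a chain of the type I receptor, had 12.26 in both DBA pools and 12.28 and 12.26 in the 129 pools, so it hardly varied. Ifnar2, the other chain, had 12.87 and 12.75 in the DBA pools, against 12.57 and 12.47 in the 129 pools, a difference of 0.29 (limma adjusted p = 0.418), and the kinase gene Jak2 differed by 0.35 (limma adjusted p = 0.352). Irf3, which starts interferon transcription before Irf7 is made, differed by 0.03. The 21 other genes of nucleic acid sensing had a median of 0.13, with Cgas, the DNA sensor, at 0.46 and the adaptor Myd88 at 0.38. The 129 male pool was the lowest for 14 of the 21, against 36% of all genes. DBA was above 129 in the male pools for 18, against 12457 of all 22180 genes. The 15 negative regulators had a median of 0.19, with Socs3, an inhibitor of Jak kinases, at 0.44. At an unadjusted p under 0.05 limma gave 3 sensing genes and 2 regulators higher and 0 lower, against 6.44% of all genes higher and 1126 of 22180 lower, and none passed after adjustment.

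Targets outside the list were described in the same way. Of 74 further interferon-stimulated genes the strain difference was positive for 57, with a median of 0.23, and the 129 male pool was the lowest for 51. Over all genes it was positive for 11306 of 22180, and the 129 male pool was the lowest for 36%. In DBA the female pool was below the male pool for 42 of the 74, a share close to that of all genes (12860 of 22180). The median female minus male difference there was -0.08, against -0.04 over all genes. In 129 the female pool was above the male pool for 61, against 13358 of all 22180 genes, with a median of 0.31. At an unadjusted p under 0.05 limma gave 16 higher and 5 lower, against 6.44% of all genes higher and 1126 of 22180 lower, and 0 after adjustment. Slfn8, of the Schlafen family, differed by 1.02 (limma adjusted p = 0.104) and Epsti1 by 0.74 (0.188). Trim30c was at least 1.40-fold higher in DBA, since both 129 pools were below the background reference, which was put in their place (limma adjusted p = 0.157). Ifi44l lay in the other direction, with log2 values of 4.57 and 4.25 in DBA females and males, against 9.69 and 7.78 in 129 females and males. Both DBA values were under the background reference and both 129 values above it, so that only a bound can be given: it was at least 2.96-fold lower in DBA (limma adjusted p = 0.0707). Of 21 measured targets of interferon gamma, the type II interferon, 20 were higher in the 129 female than in the 129 male pool, with a median of 0.44. Over all genes this was so for 13358 of 22180. For 13 of the 21 the 129 male pool was the lowest, against 36% of all genes.

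**Figure D4:**
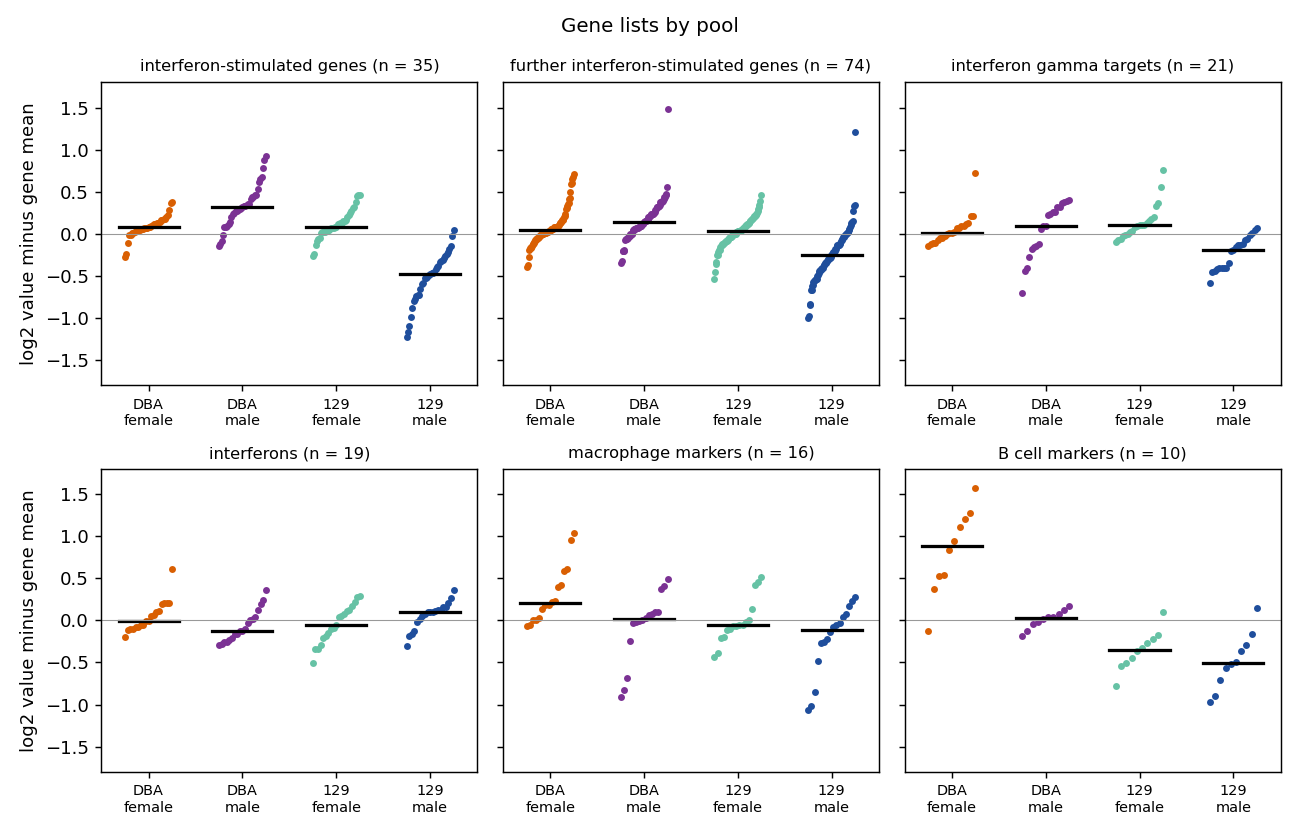
Gene lists by pool, each gene as its log2 value minus its mean over the 4 pools (vertical axis), with the median of the list as a black bar. The median of the interferon-stimulated genes is -0.47 in the 129 male pool and 0.32 in the DBA male pool, that of B cell markers is 0.89 in the DBA female pool, and Ifi44l lies outside the axis.

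Markers of cells that a peritoneal lavage can hold were set beside these values. B cell markers were measured for 10 genes and were highest in the DBA female pool, with a median of 0.89 above each gene's mean, against 0.03 in the DBA male, -0.35 in the 129 female and -0.50 in the 129 male pool. Their range of log2 differences, DBA minus 129, ran between -0.25 and 1.75, with 8 higher at an unadjusted p under 0.05 in limma, against 6.44% of all genes, and 0 after adjustment. Cd79a, a chain of the B cell receptor complex, had 10.50 and 9.33 in DBA females and males, against 8.76 and 8.58 in 129 females and males. The DBA male pool was the highest for 25 of the 35 interferon-stimulated genes and for none of the B cell markers, against 34.6% of all genes. Both lists had the 129 male pool lowest for most genes, 33 of the 35 and 8 of the 10 B cell markers, against 36% of all genes.

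Plasmacytoid dendritic cells, known for making much interferon, had 11 markers measured with medians of 0.17, -0.12, -0.02 and -0.11 in the DBA female, DBA male, 129 female and 129 male pools. The strain difference was positive for 8 of the 11, against 11306 of all 22180 genes, with a median of 0.12. The DBA male pool was the highest for 2 and the 129 male pool the lowest for 5, against 34.6% and 36% of all genes. The differences of the 11 markers ran between -0.52 and 0.94. Siglech, a surface lectin of these cells and the marker with the lowest difference of the list, had log2 values of 7.53 and 6.85 in the DBA pools, against 7.83 and 7.58 in the 129 pools. Its DBA male value was below the background reference. The 16 macrophage markers measured had medians of 0.20, 0.02, -0.06 and -0.11 in the same order of pools, and the 129 male pool was the lowest for 9, against 36% of all genes. These medians hid strain differences between -0.69 and 1.46. Both DBA pools lay above both 129 pools for 10 markers and below for 4, against 23% and 21.4% of all genes. At an unadjusted p under 0.05 limma gave 6 higher and 1 lower, against 6.44% and 1126 of 22180 genes, and 0 after adjustment. T and NK cell, neutrophil, and eosinophil and mast cell markers had median strain differences of -0.13, -0.0045 and 0.01, and 6 of 13, 9 of 15 and 6 of 11 of them lay below the background reference in every pool. Mmp9, a matrix protease in the neutrophil list that macrophages also make, was the only marker to pass the adjusted threshold, higher in DBA by 2.77 (limma adjusted p = 0.028). The part of any of these cells in the interferon-stimulated genes was not tested.

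The list was last split by the motif. Among measured genes in the promoter table, the 14 with a match had a median male strain difference of 0.89, with values between -0.19 and 2.10, and the 12 without a match in the window had one of 0.79, with values between 0.26 and 1.78. Their female medians were -0.04 and 0.01. These are descriptions without a test, and the windows are those of the reference genome.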

How the data were processed

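The authors processed 4 whole-transcript mouse arrays, 1 per pool, with Affymetrix Expression Console and deposited log2 expression values for 41345 probe sets, which lay between 1.71 and 14.2. How the program summarised and normalized them, and its version, is not stated in the sources used here. The values were used as deposited, with no filter on low values. Probe sets with a single symbol in the array annotation were kept (23521, of which 23328 matched RefSeq by gene ID), 1820 with several symbols and 16004 with none were left out, and a gene with several probe sets (1082 genes) was read from its brightest one (highest mean over the arrays).

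The strain fit (DBA minus 129) used limma 3.58.1 (lmFit, eBayes) under R 4.3.3 with no term but strain, which left 2 residual degrees of freedom, and the prior gave 3.73 more. The sex fit (female minus male) kept strain as a covariate, which left 1, the difference between the strains in the sex effect. Benjamini-Hochberg adjustment ran over the 22180 genes. A ratio is that of mean linear levels. Statistics in full were given for up to 6 members with the largest rise or fall among those whose strains did not overlap, for Irf7, Irf9 and Stat2, and for up to 4 with the largest female minus male difference. Of each other list up to 4 genes with the smallest p could be named, and any other gene named was chosen after its values were seen.

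The members and lists were chosen with earlier results of these data known. Alternatives were a replicate block (sex), each pool left out, arrays brought to a shared median or quantile normalized, dim probe sets left out, probe sets averaged per gene or all tested singly, and a prior that was trended and robust. The values within a sex or strain, the counts by pool, their scaling and the bounds against the background reference were added after seeing the data. The procedure was tested on simulated data for DBA against 129, with 200 of 22180 genes changed: it recovered 0.4% at a log2 change of 0.5, 49.8% at 1 and 96.2% at 2. Correlations between arrays lay between 0.97 and 0.987, and no 2 arrays were identical. Precision is limited by the small number of arrays.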

Additional observations from a re-analysis of the deposited data

Results flagged for a closer look

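The interferon-stimulated genes differed between female and male pools in opposite directions in the strains. The median female minus male log2 difference over the 35 measured genes was -0.22 in DBA and 0.54 in 129. With 1 pool per strain and sex the difference of these differences was not tested. Taken as the female minus male difference in DBA less that in 129, it was -1.23 for Rsad2, -1.47 for Oasl2, -0.45 for Ddx60, -1.12 for Zbp1, -0.65 for Tor3a, -0.55 for Eif2ak2, -1.45 for Irf7 and -1.90 for Rtp4. Irf9, Stat2 and Oas2, the other genes given in full, were higher in the female pool of both strains.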

How the results depend on the processing

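No interferon-stimulated gene passed the adjusted threshold under any alternative, and the median strain difference stayed between 0.10 and 0.68 when pools were left out in turn and between 0.32 and 0.42 under the other settings of the fit. It was -0.016 within the female pools and 0.82 within the male pools, and the female minus male median was -0.22 within DBA. The number of genes changed over the whole array was 83, against 47 with sex as a replicate block, 129 with a trended and robust prior and 0 when all probe sets were tested (1685 at an unadjusted p under 0.05), and between 6 and 186 with a pool left out. Replicate numbers are shared through sex alone, so the block is sex and not a pairing of animals; with it, 5 interferon-stimulated genes were at an unadjusted p under 0.05, against 7. Leaving out a pool gave between -0.29 and 0.94 for Irf7, between -0.0063 and 0.45 for Irf9, between -0.16 and 0.14 for Stat2 and between -0.27 and 0.47 for Oas2. Stat2 was at 0.022 with a common median and Oas2 at -0.012 after quantile normalization; the cause was not tested. The 129 male pool was the lowest for 31 of the 35 genes after quantile normalization and for 33 with a common median, where it was so for 29.9% and 37.3% of all genes. After quantile normalization the DBA male pool was the highest for 20 genes, against 25 as deposited. Opposite sex differences in the strains then held in 26, against 29 as deposited and 31.4% of all genes after quantile normalization. The median strain difference in the male pools fell to 0.67. Leaving out a pool leaves the comparison of sexes no residual degree of freedom, and it was not run.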
